A study of Mus musculus with 6 samples.

Results

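The genes described here were 40 antioxidant genes of the mouse, chosen by name and by role from a listing of NRF2 regulators, NRF2-driven enzymes, glutathione enzymes, the peroxiredoxin and thioredoxin system, and enzymes that remove superoxide and peroxide. The rule for choosing them used names and roles and no measured value, but earlier results of these data were known at the time. All 40 were among the 25330 genes in the count tables, and 38 of them had enough reads to be tested. RNA-seq had been performed on 6 libraries of AML12 cells, a hepatocyte line derived from the liver of a mouse transgenic for human TGF-alpha and labelled as wild type in every sample. The 3 Control libraries came from cells kept at 21% oxygen in their routine medium with serum, insulin, transferrin, selenium and dexamethasone. The 3 H/R libraries came from cells held for 6 h at 1% oxygen in medium without serum or glucose and then reoxygenated for 2 h. Lowered oxygen, the change of medium and the return of oxygen were applied together and cannot be told apart, and whether the H/R medium held the selenium supplement is not given in the sources used here. The comparison of H/R with Control asked how antioxidant transcripts had changed at this early time of reoxygenation in a culture model of liver ischemia and reperfusion.

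NRF2, encoded by Nfe2l2, is a transcription factor that binds the antioxidant response element (ARE) together with a small MAF protein. KEAP1 hands NRF2 to a ubiquitin ligase until oxidants or electrophiles modify it, and BACH1 is a heme-sensitive repressor that occupies the same elements. Glutathione is made by glutamate-cysteine ligase and glutathione synthetase, is used by peroxidases, transferases and glutaredoxins, and is reduced again by glutathione reductase with NADPH. Peroxiredoxins are recharged by thioredoxin and thioredoxin reductase. Superoxide dismutases turn superoxide into hydrogen peroxide, which catalase and glutathione peroxidases remove. Hepatocytes are rich in these enzymes, and reoxygenation of liver cells is known for a burst of reactive oxygen species.

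The antioxidant genes did not move together after H/R. In the quasi-likelihood test of edgeR, adjusted by Benjamini-Hochberg over all 14020 genes tested, 11 of the 38 tested members were higher, 19 were lower and 8 did not pass an adjusted p of 0.05. Over all genes tested, 62.8% passed in either direction, 31.0% were higher and 31.8% were lower. Only Hmox1 and Osgin1 also changed at least 2-fold, both upward, where 4.25% of all genes were at least 2-fold higher and 4.27% were at least 2-fold lower. All 3 H/R libraries lay above all 3 Control libraries for 11 tested members and below them for 20, and 65.9% of all genes did not overlap between the groups. The median log2 fold change of the members was -0.14, and that of all genes tested was -0.01. Under scaling by library totals 9 members were higher and 21 lower, beside 3346 higher and 5478 lower genes over the whole table.

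**Figure D1:**
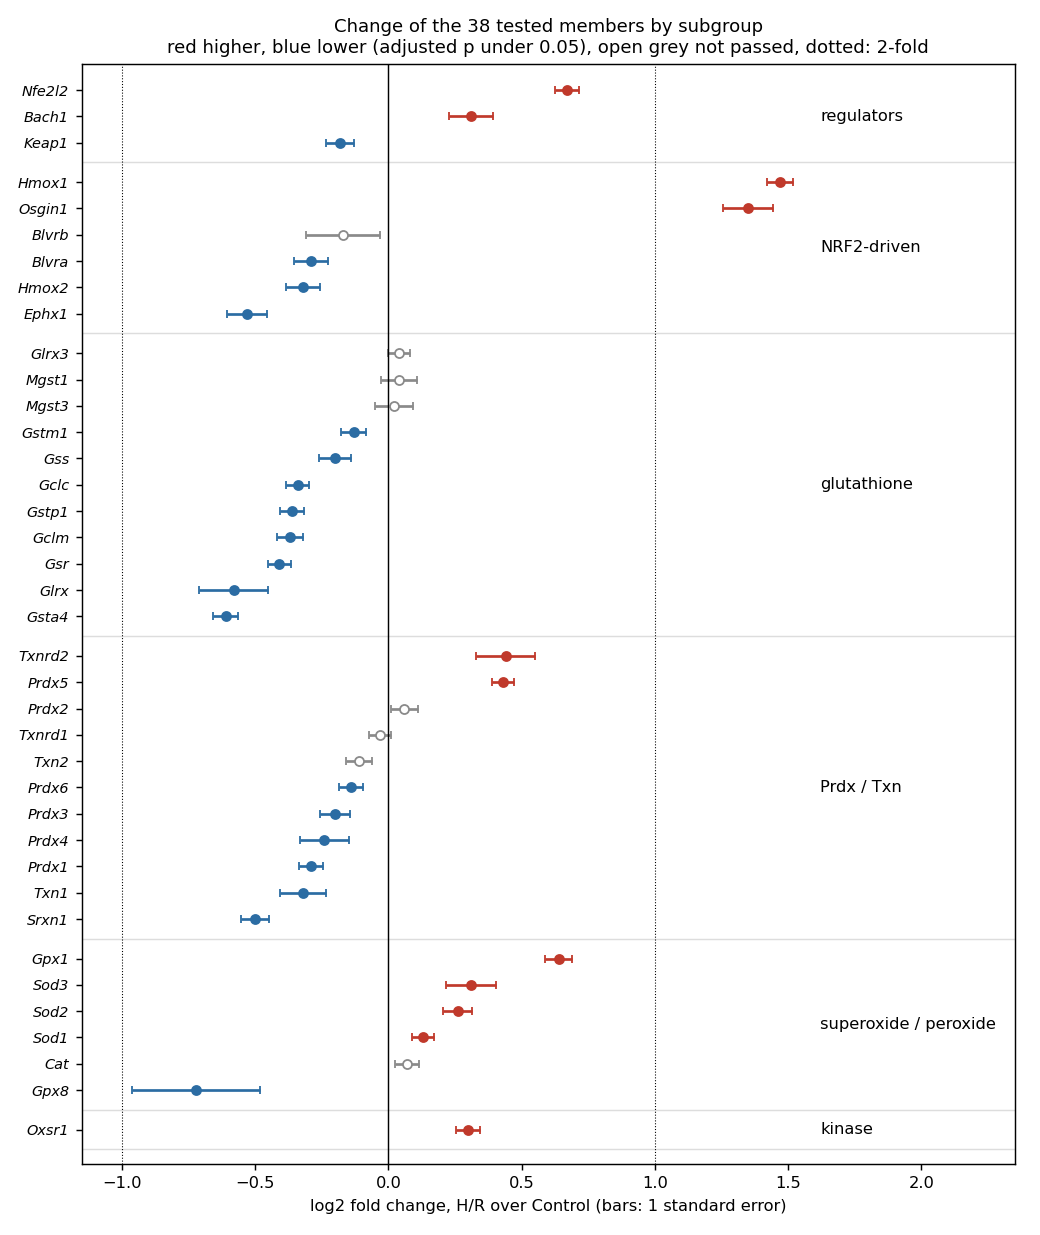
Log2 fold change (H/R over Control, x axis) of the 38 tested members with 1 standard error, grouped by role on the y axis, with n = 3 libraries a group. Red points were higher, blue points lower, and open grey points did not pass the adjusted p. Hmox1 and Osgin1 lie beyond the dotted 2-fold line, and the glutathione group has no red point. Mgst1, Mgst3, Glrx3, Prdx2 and Cat lie near 0 and change sign under scaling by library totals.

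Library totals were 20438746 to 21854790 counts. Of the hepatocyte markers, Alb had 542, 132 and 209 counts in Control and 43, 31 and 37 after H/R, and Hnf4a had 2973 to 3209 and 2035 to 2166. Serpina1a had 61 counts in Control 1 but 0 or 1 in the other libraries. The 11 hepatocyte markers took 4230 to 4580 CPM (their summed counts scaled to library size) in Control and 6190 to 6220 after H/R, and 7 of the 10 tested markers were lower and 3 higher. Most of that sum was Krt8 and Krt18, each 1.58-fold higher, while Alb, Ttr, Trf and Afp fell to 0.139, 0.119, 0.358 and 0.244 of their Control level. The 11 markers of other liver cell types took 874 to 1000 and 1670 to 1760 CPM, nearly all from Krt19. The defining leukocyte, Kupffer cell, endothelial and stellate cell genes Ptprc, Adgre1, Clec4f, Pecam1 and Lrat had 0 to 3 counts in each library. Stab2 had 0 to 4, Acta2 0 or 1, Des 7 to 13 and Col1a1 4 to 16 counts, and Cd68 rose from 16 to 22 counts to 113 to 137. The part of these marker shifts in the results was not tested. Control 1 stood apart by Alb and Serpina1a and by Rn18s-rs5, which took 0.601% of its counts against 0.133% to 0.201% elsewhere. Without Control 1, 11 members were higher and 16 lower. In bulk RNA, fewer cells of a type and less RNA per cell cannot be told apart.

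Promoter sequence was examined because NRF2 acts through the ARE. RefSeq windows from 250 bases before to 50 bases after the annotated start (assembly GRCm38.p6) were found for 34 of the 40 members and not for Hmox1, Gclc, Gsr, Gsta4, Prdx6 and Sod3. The ARE core TGACNNNGC, searched on both strands, was present in 8 of the 34 and in 14.0% of the 27025 gene symbols with a window. A variant with G in place of the first C was not searched, so a gene outside the 8 may still hold it. The letters TGAGTCAGC stand in the windows of Gstp1 and Srxn1, and as their reverse complement in that of Osgin1, and were not counted. In the Srxn1 window below they are in lower case. The 8 windows of 100 bases around the core are shown because they allow the core to be set beside the direction of each gene. Each is written 5′ to 3′ in the sense of the gene, and the capitals mark the core, which reads as its reverse complement in all but Nfe2l2.
Nfe2l2 (chr2:75704814-75704913, minus strand): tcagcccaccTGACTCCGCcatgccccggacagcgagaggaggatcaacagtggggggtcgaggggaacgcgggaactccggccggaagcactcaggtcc
Blvra (chr2:127070562-127070661, plus strand): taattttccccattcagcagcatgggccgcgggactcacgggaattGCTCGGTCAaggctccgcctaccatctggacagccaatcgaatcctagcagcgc
Gclm (chr3:122245377-122245476, plus strand): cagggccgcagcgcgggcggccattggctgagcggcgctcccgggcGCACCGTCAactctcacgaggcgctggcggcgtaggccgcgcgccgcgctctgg
Mgst1 (chr6:138140425-138140524, plus strand): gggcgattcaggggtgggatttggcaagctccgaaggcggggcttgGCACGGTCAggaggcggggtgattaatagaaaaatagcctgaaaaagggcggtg
Txnrd1 (chr10:82859068-82859167, plus strand): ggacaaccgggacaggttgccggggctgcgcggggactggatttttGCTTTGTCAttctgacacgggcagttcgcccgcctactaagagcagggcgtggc
Srxn1 (chr2:152105474-152105573, plus strand): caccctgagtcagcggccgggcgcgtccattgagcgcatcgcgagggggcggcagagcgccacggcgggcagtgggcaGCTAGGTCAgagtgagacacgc
Prdx1 (chr4:116685420-116685519, plus strand): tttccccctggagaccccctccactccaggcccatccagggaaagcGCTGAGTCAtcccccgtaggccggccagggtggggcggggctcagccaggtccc
Sod1 (chr16:90220660-90220759, plus strand): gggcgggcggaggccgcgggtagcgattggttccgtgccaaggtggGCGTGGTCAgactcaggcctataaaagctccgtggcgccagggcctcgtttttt
Of these 8 genes, Nfe2l2 and Sod1 were higher after H/R, Blvra, Gclm, Srxn1 and Prdx1 were lower, and Mgst1 and Txnrd1 did not pass. The match began at position -240 from the start in Nfe2l2, -134 in Gclm, -133 in Prdx1 and 29 in Srxn1, and the Prdx1 match, TGACTCAGC in its own sense, also contains the AP-1 motif TGACTCA. The hypoxia response core ACGTG, also searched on both strands, was in 9 of the 34 windows and in 21.8% of the symbols. Those 9 were Keap1, Blvrb, Gclm, Gstm1, Gstp1, Txnrd2, Prdx4, Gpx1 and Gpx8, of which Txnrd2 and Gpx1 were higher, Blvrb did not pass and the others were lower. A match is only letters in this window, and binding was not measured.

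Among the NRF2 regulators, Nfe2l2 and Bach1 mRNA were higher and Keap1 mRNA was lower. Nfe2l2 (chr2:75675513-75704641, minus strand, GRCm38, as are all gene coordinates here) had 1755, 1812 and 1711 normalized counts in Control and 2748, 2924 and 2749 after H/R. Normalized counts are counts scaled by TMM (trimmed mean of M values) to a common library size. All 3 H/R libraries lay far above the Control libraries, a 1.60-fold rise (log2 0.67 ± 0.045 SE, adjusted p = 5.05e-15, n = 3 a group). Keap1, the inhibitor of NRF2, had 1357, 1358 and 1506 normalized counts in Control and 1306, 1181 and 1237 after H/R, so the groups were close but did not overlap (log2 -0.18 ± 0.053, adjusted p = 0.00371). Bach1, the repressor, rose from 308, 289 and 304 to 358, 369 and 388 (log2 0.31 ± 0.081, adjusted p = 0.00133). Bach1 lost its call in both fits of log2 RPKM. The RPKM of an antisense gene, Gm16754, which overlaps 10.9% of the exon length of Keap1, was 15.6 in Control, against 14.7 for Keap1 itself, so reads of the pair may not have been separated. Gm17494 and Gm6061, which overlap Gclm and lie on opposite strands, had nearly equal counts in every library. These were 880 and 859 in Control 1 and 824 and 814 in H/R 1. The same reads may thus have been counted for genes on both strands, and values of overlapping members may hold reads of their neighbours.

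Among the 7 members grouped as NRF2-driven heme, quinone and epoxide enzymes, 2 rose sharply and 3 fell. Another 1 did not pass and 1 was too low to test. The group name is a listing by role and not a measure of NRF2 output. It includes the constitutive Hmox2, while Gclm, commonly listed as an NRF2 target, is counted with the glutathione enzymes. Hmox1 (chr8:75093621-75100589, plus strand), the inducible heme oxygenase that breaks heme down to biliverdin, iron and carbon monoxide, had 1127, 1104 and 1211 normalized counts in Control and 3273, 3275 and 2986 after H/R. This 2.77-fold rise (95% interval 2.59 to 2.96, log2 1.47 ± 0.049, adjusted p = 2.13e-23) was the largest among the members. Osgin1 (chr8:119434124-119446256, plus strand), an oxidative-stress-induced growth inhibitor, had 185, 160 and 206 and then 509, 424 and 470 normalized counts, a 2.54-fold rise (95% interval 2.24 to 2.89, adjusted p = 2.13e-14). For both genes every H/R library was more than 2-fold above every Control library.

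The other heme enzymes went down or did not pass. Hmox2, the constitutive heme oxygenase, had 1407, 1292 and 1115 normalized counts in Control and 1034, 1032 and 992 after H/R (log2 -0.32 ± 0.065, adjusted p = 1.78e-04). Exons of Cdip1 on the opposite strand overlap 40.2% of the exon length of Hmox2, and Cdip1 had a mean of 281 normalized counts in Control and 317 after H/R. Blvra, the biliverdin reductase that makes bilirubin and whose window holds an ARE core, fell by 0.29 on the log2 scale (SE 0.063, adjusted p = 1.51e-04). Blvrb, the other biliverdin reductase, had 131 to 165 normalized counts in Control and 102 to 166 after H/R, which overlapped (adjusted p = 0.305), but passed without H/R 2 (adjusted p = 0.0476). Ephx1, the microsomal epoxide hydrolase, had 572, 490 and 514 normalized counts in Control and 379, 354 and 360 after H/R (log2 -0.53 ± 0.076, adjusted p = 2.33e-07).

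Nqo1, the quinone reductase often used as a reporter of NRF2, was almost absent from these cells. It had 3, 4 and 5 raw counts in Control and 2, 1 and 1 after H/R, that is 12 and 4 counts in all, and failed the filter on low counts. No change in Nqo1 could be determined at this depth.

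**Figure D2:**
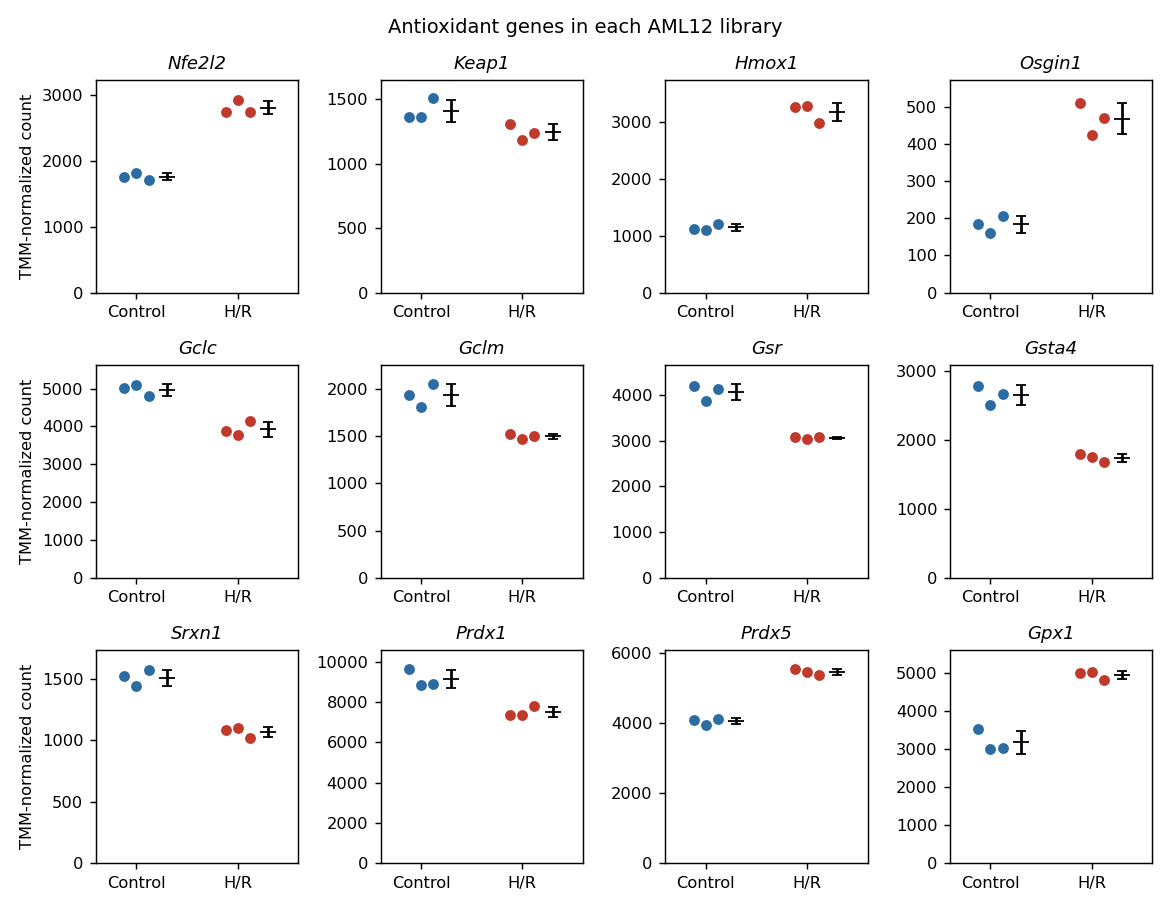
TMM-normalized counts (y axis, from 0) of 12 members in each of the 3 Control libraries (blue) and the 3 H/R libraries (red), with the mean and 1 SD in black. Nfe2l2, Hmox1, Osgin1, Prdx5 and Gpx1 are higher in every H/R library, and Keap1, Gclc, Gclm, Gsr, Gsta4, Srxn1 and Prdx1 are lower in every H/R library.

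The glutathione enzymes moved mostly downward. Of 11 members, all tested, 8 were lower, 3 did not pass and 0 were higher, with a median log2 fold change of -0.34. The count of higher genes was also 0 at an unadjusted p under 0.05 and with DESeq2. The enzymes of synthesis were all lower. Gclc (chr9:77754535-77794485, plus strand), the catalytic subunit of glutamate-cysteine ligase, had 5004, 5100 and 4793 normalized counts in Control and 3873, 3764 and 4146 after H/R (log2 -0.34 ± 0.044, adjusted p = 2.74e-08). Gclm, its modifier subunit and a holder of the ARE core shown above, had 1938, 1809 and 2047 and then 1523, 1468 and 1502 (log2 -0.37 ± 0.049, adjusted p = 6e-08). Gm6061, on the same strand, overlaps 3.9% of the exon length of Gclm. Its mean RPKM in Control was 92.9, against 15.0 for Gclm, so the value of Gclm may hold reads of Gm6061. Gm6061 did not pass (log2 -0.14, edgeR adjusted p = 0.292). The falls of the 2 subunits differed by less than 1 SE. Gss, glutathione synthetase, fell by 0.20 (SE 0.06, adjusted p = 0.00446), and 15.4% of its exon length overlaps other genes.

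Gsr, the NADPH-dependent glutathione reductase, had 4195, 3861 and 4130 normalized counts in Control and a narrow 3070, 3041 and 3075 after H/R (log2 -0.41 ± 0.043, adjusted p = 3.64e-10). Gsta4, the transferase that conjugates the lipid peroxidation product hydroxynonenal, fell from 2790, 2506 and 2664 to 1791, 1757 and 1679 (log2 -0.61 ± 0.047, adjusted p = 2.35e-13). Glrx, a glutaredoxin that removes glutathione from protein thiols, had 162, 148 and 172 and then 92.6, 108 and 122 (log2 -0.58 ± 0.13, adjusted p = 1.6e-04). These 3 genes did not overlap between the groups, and the falls of Gsta4 and Glrx differed by less than the SE of Glrx.

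The remaining transferases among the members changed less. Gstp1 had 2028, 2052 and 2047 normalized counts in Control and 1574, 1596 and 1615 after H/R (log2 -0.36 ± 0.045, adjusted p = 1.86e-08). It shares 57.7% of its 75-base stretches with Gstp2 and a pseudogene, so its value may hold reads of both or miss shared reads. Gstm1 fell by 0.13 (SE 0.047, adjusted p = 0.0137), a call that was lost without Control 1 (adjusted p = 0.101) and with DESeq2 (adjusted p = 0.0526). The membrane transferases Mgst1 and Mgst3 and the monothiol glutaredoxin Glrx3 overlapped between the groups, with fold changes of 1.03 (95% interval 0.94 to 1.12), 1.01 (0.919 to 1.11) and 1.03 (0.968 to 1.09). Transferases of the other lists are named here after their values were seen. Gsta1, at 192 RPKM in Control, had a fold change of 0.998 (edgeR adjusted p = 0.968). Gsta2, Gstm2, Gsto1, Gstz1 and Mgst2 also did not pass, and Gsta3 was lower.

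In the peroxiredoxin and thioredoxin system 6 of 11 members were lower, 2 were higher and 3 did not pass, with a median log2 fold change of -0.14. Prdx1 (chr4:116685544-116700822, plus strand), the abundant cytosolic peroxiredoxin, had 9660, 8863 and 8905 normalized counts in Control and 7346, 7362 and 7795 after H/R (log2 -0.29 ± 0.045, adjusted p = 1.05e-06). Srxn1, the sulfiredoxin that repairs over-oxidized peroxiredoxins, fell further, from 1519, 1437 and 1567 to 1083, 1099 and 1021 (log2 -0.50 ± 0.052, adjusted p = 2.58e-10). Both hold an ARE core in the windows above, a set whose genes went in both directions. A part of NRF2 in these falls was not tested.

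Prdx5, a peroxiredoxin found in mitochondria, peroxisomes and cytosol, went the other way. It had 4099, 3947 and 4126 normalized counts in Control and 5533, 5470 and 5366 after H/R (log2 0.43 ± 0.041, adjusted p = 3.41e-11). The opposite-strand gene Trmt112, which overlaps 19.1% of its exon length, fell by 0.16 on the same scale. Among the other peroxiredoxins, the mitochondrial Prdx3 fell by 0.20 (SE 0.057, adjusted p = 0.0025) and the glutathione-using Prdx6 fell by 0.14 (SE 0.046, adjusted p = 0.00726). Prdx4, of the endoplasmic reticulum, fell by 0.24 (SE 0.093, adjusted p = 0.022), a call lost without Control 1 (adjusted p = 0.067), without H/R 1 (adjusted p = 0.153) and with DESeq2 (adjusted p = 0.0753). Prdx2 had 1399 to 1542 normalized counts in Control and 1455 to 1597 after H/R, which overlapped, and 11.5% of its exon length overlaps neighbours, among them Junb, which rose 4.08-fold.

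The thioredoxins and their reductases were divided. Txn1, the cytosolic thioredoxin, had 716, 735 and 865 normalized counts in Control and 579, 574 and 706 after H/R (log2 -0.32 ± 0.085, adjusted p = 0.00407). Its mitochondrial counterpart Txn2 overlapped between groups (adjusted p = 0.0635) and passed without Control 2 (adjusted p = 0.0326), without Control 3 (0.0472) or without H/R 2 (0.0236). Txnrd1, the cytosolic selenoprotein reductase, had 6710, 6681 and 6626 normalized counts and then 6576, 6609 and 6359. The groups of Txnrd1 did not overlap, yet the fold change was 0.976 with an interval of 0.924 to 1.03 (adjusted p = 0.474). Under library totals Txn2 (adjusted p = 3.9e-04) and Txnrd1 (adjusted p = 0.0019) both passed as lower. Txnrd2, the mitochondrial reductase, rose from 154, 160 and 184 to 190, 234 and 252 (log2 0.44 ± 0.11, adjusted p = 8.6e-04), but lost its call in both fits of log2 RPKM.

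The enzymes that act directly on superoxide and peroxide were mostly higher under TMM scaling. Of 7 members, 6 were tested, of which 4 were higher, 1 was lower and 1 did not pass, with a median log2 fold change of 0.20. Gpx1 (chr9:108338903-108340343, plus strand), the abundant selenium-dependent glutathione peroxidase, had 3538, 3006 and 3021 normalized counts in Control and 5011, 5043 and 4832 after H/R. This was a 1.56-fold rise (95% interval 1.45 to 1.67, log2 0.64 ± 0.051, adjusted p = 4.57e-11), well outside the spread of both groups.

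The 3 superoxide dismutases rose by small amounts. Sod2, the mitochondrial manganese enzyme, had 932, 911 and 876 normalized counts in Control and 1094, 1127 and 1040 after H/R (log2 0.26 ± 0.054, adjusted p = 8.31e-05). Sod3, the secreted enzyme, had 210, 194 and 196 and then 240, 253 and 252 (log2 0.31 ± 0.095, adjusted p = 0.00481), and lost its call under library totals (adjusted p = 0.0603). Sod1, the cytosolic copper-zinc enzyme, had 3899, 3709 and 3954 and then 4365, 4243 and 4069 (log2 0.13 ± 0.043, adjusted p = 0.00751). The rise of Sod1 depended on the scaling, since under library totals it was 0.0272 on the log2 scale (adjusted p = 0.588), and it was lost without H/R 1 (adjusted p = 0.067).

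Cat, the peroxisomal catalase, overlapped between groups, with 2444 to 2616 normalized counts in Control and 2588 to 2721 after H/R (fold change 1.05, interval 0.991 to 1.12). Gpx8, of the endoplasmic reticulum, was scarce and fell from 58.7, 45.8 and 39.5 to 29.1, 21.6 and 36.0 (log2 -0.72 ± 0.24, adjusted p = 0.00794). The call of Gpx8 was lost without Control 1 (adjusted p = 0.0697) and without H/R 2 (adjusted p = 0.0606). Gpx3, the plasma glutathione peroxidase, had too few reads to test, with a mean of 0.146 RPKM in Control and 0.150 after H/R. Oxsr1, a stress-responsive kinase better known for the control of ion cotransporters, rose from 2004, 2193 and 2085 to 2573, 2511 and 2642 (log2 0.30 ± 0.045, adjusted p = 6.64e-07).

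Levels per transcript length were compared in RPKM, which the authors scaled to library totals and not by TMM. Sod1 was the most abundant member in both groups, with 292 ± 12.5 in Control and 298 ± 7.88 after H/R (mean ± SD, n = 3), a difference smaller than the SD. In Control the next were Prdx1 (147 ± 5.80), Gstp1 (132 ± 2.62), Gpx1 (108 ± 9.08) and Gsta4 (103 ± 5.36), of which the last 2 lay within 1 SD of each other. After H/R the order was Sod1, Gpx1 (157 ± 2.27), Prdx5 (116 ± 0.779), Prdx1 (112 ± 4.87) and Gstp1 (96.0 ± 2.09), in which Prdx5 and Prdx1 lay within 1 SD of Prdx1 of each other. Hmox1 moved from rank 13 (32.1 ± 2.05) to rank 7 (82.6 ± 3.60), and Nfe2l2 from rank 20 to rank 13.

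Summed over each group of enzymes, the glutathione enzymes held 533, 516 and 533 RPKM in Control and 390, 387 and 398 after H/R, a change of -25.7%. The peroxiredoxin and thioredoxin sum went from 482 to 509 down to 439 to 454, and the superoxide and peroxide sum from 444 to 475 up to 509 to 527. The sum of the group named NRF2-driven rose from 90.8 to 98.6 up to 129 to 137, through Hmox1 and Osgin1 alone. All 40 members together held 1642 ± 43.7 RPKM in Control and 1560 ± 3.69 after H/R. The direction of this total, a change of -5.01%, depended on the scaling. With the TMM factors applied, a scaling added after the values had been seen, it was 1584 ± 41.8 in Control and 1618 ± 14.0 after H/R, and the groups overlapped. On that scale the sums of the glutathione enzymes and of the peroxiredoxin and thioredoxin system changed by -20.1% and -3.55%. The sum of the group named NRF2-driven changed by 51.8%, and that of the superoxide and peroxide enzymes went from 448 ± 17.6 to 538 ± 14.2. None of these 4 sums overlapped between the groups, and each had the same direction as on library totals.

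**Figure D3:**
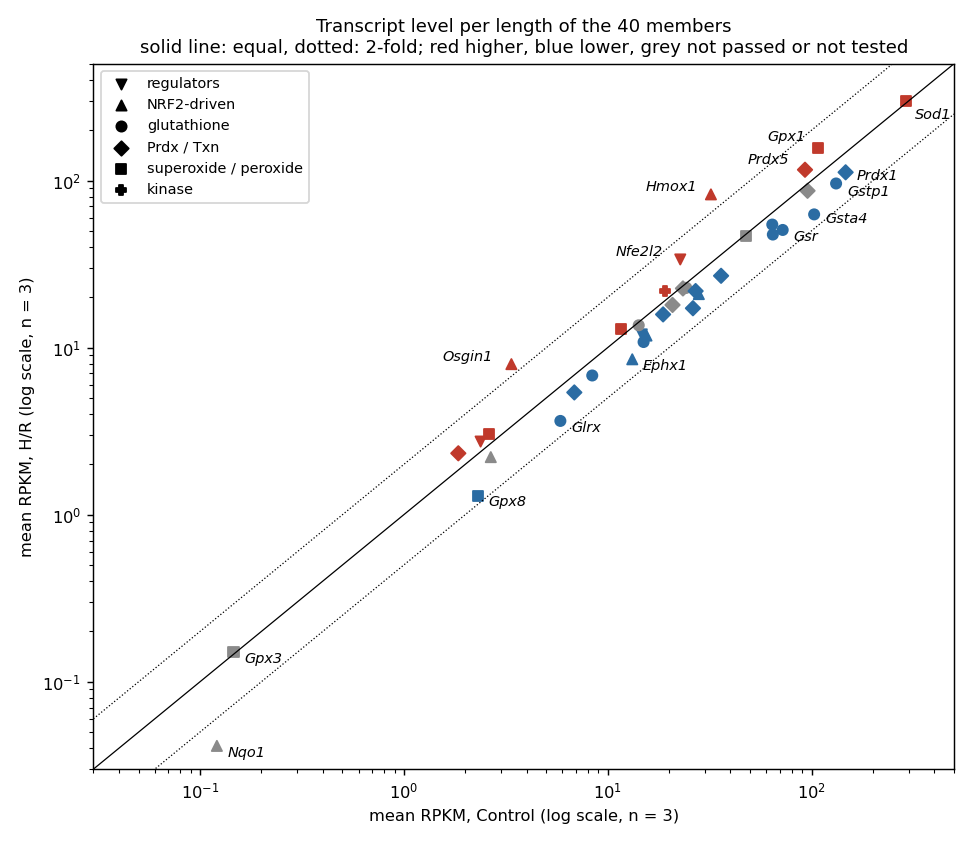
Mean RPKM of the 40 members in Control (x axis) and after H/R (y axis), both on log scales, n = 3 libraries a group. Symbols give the role and colours the edgeR call, the solid line marks equal levels and the dotted lines 2-fold. Hmox1 and Osgin1 lie above the upper dotted line, while Nqo1 and Gpx3 lie far below the other members at under 1 RPKM.

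Ratios of 2 members within a library do not depend on how libraries are scaled. The 11 pairs were formed after the values had been seen, so the ratios are descriptions, and the exact permutation test of 3 against 3 libraries cannot give a p below 0.1. Hmox1 to Hmox2 was 1.01, 1.08 and 1.38 in Control and 4.01, 4.02 and 3.81 after H/R. Hmox1 to Gclm was 2.09, 2.19 and 2.13 and then 7.72, 8.02 and 7.14, so 2 genes commonly listed as NRF2 targets parted by 3.57-fold. Gclc to Gclm was 4.31 ± 0.398 in Control and 4.38 ± 0.20 after H/R and overlapped. The ratios with Gclm are limited by its overlap with Gm6061. Nfe2l2 to Keap1 went from 1.60, 1.65 and 1.40 to 2.60, 3.06 and 2.75.

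Along the path of peroxide removal the ratios also shifted. Gsr to Gpx1, the reductase that restores glutathione against a peroxidase that spends it, went from 0.620, 0.672 and 0.715 to 0.320, 0.316 and 0.333. Prdx5 to Prdx3 went from 3.44 ± 0.108 to 5.33 ± 0.131. Srxn1 to Prdx1 went from 0.178 ± 0.0105 to 0.154 ± 0.0109, without overlap. Txnrd1 to Txn1 overlapped, at 2.36 to 2.88 and 2.77 to 3.54.

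**Figure D4:**
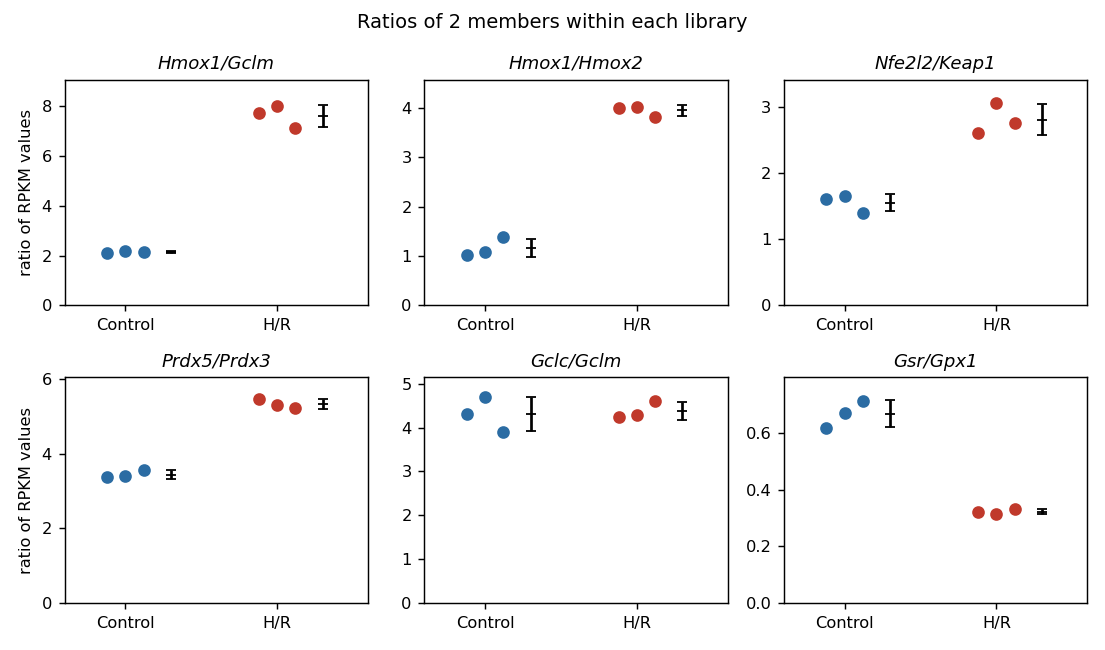
Ratio of the RPKM values of 2 members (y axis, from 0) in each Control library (blue) and each H/R library (red), with mean and 1 SD in black. Hmox1/Gclm rises from about 2.14 to 7.63 on average and Gsr/Gpx1 falls from 0.669 to 0.323, while Gclc/Gclm overlaps between the groups.

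By location, the 5 members assigned to mitochondria were Sod2, Prdx3, Prdx5, Txn2 and Txnrd2. Locations were assigned for description only, and other members may also be found in mitochondria. Of these, 3 were higher, 1 was lower and 1 did not pass, with a median log2 fold change of 0.26. This split depends on assignment and scaling, since Prdx5 is also found in peroxisomes and cytosol. Txnrd2 lost its call in both fits of log2 RPKM, and Txn2 passed as lower under library totals. The 7 members assigned to the endoplasmic reticulum held 1 that was higher, Hmox1, 4 that were lower and 2 that did not pass, with a median of -0.24. Whether the 2 locations differed was not tested.

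Other genes of the pathway, listed apart from the members, were also mixed. Of 13 further genes that control NRF2, some acting with it and some toward its breakdown, 10 were tested. Of these, 8 were higher, 1 was lower and 1 did not pass, with a median log2 fold change of 0.41. Because the list is mixed, these counts give no direction for NRF2 activity. The greatest rise among the control genes was that of Maff, a small MAF protein and a partner of NRF2 at the ARE. Maff went from 1662, 1543 and 1600 to 7108, 7772 and 7432 normalized counts (log2 2.21 ± 0.046, adjusted p = 2.03e-29). Of 18 further NRF2 targets, 14 were tested, of which 1 was higher, 7 were lower and 6 did not pass, with a median of -0.13. These counts depend on assignment, since genes also commonly listed as NRF2 targets stand in other lists, and are named here after their values were seen. Sqstm1 (1.82-fold) and Mafg (1.31-fold), both higher, were counted as control genes. G6pdx (0.737-fold) and Pgd (0.719-fold), both lower, and Me1, which did not pass, were counted with NADPH supply. Abcc2, the canalicular exporter of glutathione conjugates, fell from 569, 529 and 512 to 135, 133 and 146 (log2 -1.96 ± 0.089, adjusted p = 1.02e-19), and Aox1, aldehyde oxidase, fell by 1.13 (SE 0.13, adjusted p = 4.3e-09).

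Of 12 genes that supply NADPH, 3 were higher, 4 were lower and 5 did not pass, with a median of -0.04. Idh1, the cytosolic isocitrate dehydrogenase that makes NADPH, fell from 3642, 3858 and 3730 to 1733, 1655 and 1642 (log2 -1.16 ± 0.044, adjusted p = 8.98e-22). Of 23 further genes of glutathione metabolism, 17 were tested, of which 3 were higher, 5 were lower and 9 did not pass, with a median of 0.01. Chac1, an enzyme that degrades glutathione, rose from 75.7, 53.6 and 77.2 to 487, 684 and 514 (log2 3.02 ± 0.17, adjusted p = 9.05e-09). The other listed genes of glutathione breakdown were not among the higher genes, and are named here after their values were seen. Ggt7, Oplah and Ggct fell by 0.36, 0.31 and 0.35 on the log2 scale (adjusted p = 5.67e-04, 0.00111 and 0.0116), and Ggt1 (log2 0.10) and Chac2 (log2 -0.10) did not pass. Neither glutathione nor protein was measured.

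**Figure D5:**
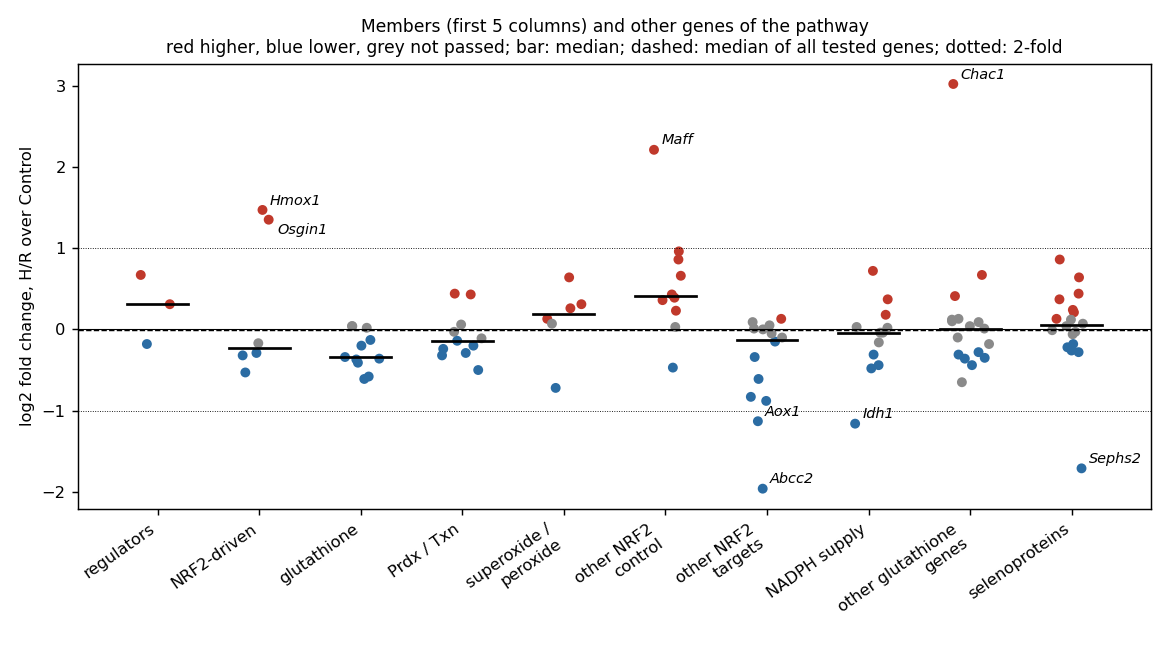
Log2 fold change (y axis) of each tested gene of 5 member groups and of 5 further gene lists (x axis). Red was higher, blue lower and grey did not pass, the bar is the median of a list, and the selenoprotein list includes 3 tested members (Gpx1, Txnrd1 and Txnrd2). The named points are at least 2-fold changed, with Chac1 at 3.02 and Abcc2 at -1.96 as the extremes.

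Nothing in the labels says that the 3 libraries of a group came from separate cultures, so the p-values measure the spread between these libraries, which may be technical. Reads may also be shared with near-identical copies for Glrx3, Gstm1, Sod1 and Prdx1, which have 16.8%, 14.8%, 12.2% and 5.6% of their 75-base stretches in other genes. The values are of mRNA at a single time after a single protocol, and NRF2 protein and its activity were not measured.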

How the data were processed

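RNA-seq was analysed in 6 libraries of AML12 cells, 3 Control and 3 H/R, grouped by GEO's labels. The authors sequenced stranded mRNA libraries with paired ends on a NovaSeq instrument. The submitters' processing notes name Trimmomatic 0.36, featureCounts of Subread 1.5.1 and edgeR 3.12.1, the mapping to GRCm38 is stated with software printed as STRA, and the gene annotation and the strand setting of counting are not given in the sources used here. The deposited counts are whole numbers of reads per gene without normalization, and the RPKM values that the authors deposited follow from count, gene length and library total to within a relative error of 1.13e-06. In 24 entries the symbol had become a date.

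Counts were fitted with edgeR 4.0.16 in R 4.3.3 (filterByExpr with a minimum count of 10, TMM, robust glmQLFit, glmQLFTest, no replicate block) over all 14020 genes tested, with Benjamini-Hochberg adjustment. Called means an adjusted p under 0.05, and the study's 2-fold threshold was added where stated. Standard errors were derived from the F statistic, and intervals are 95%. Normalized counts are counts divided by the effective library size times its mean. Replicates of a group differed by more than sampling noise. The main edgeR fit was checked on simulated counts, and the other procedures were not. Alternatives were other scalings, filters and a replicate block, DESeq2 1.42.0, limma 3.58.1 on log2(RPKM + 1) and log2(RPKM + 0.1), and each library left out. The members, lists and ratios were chosen with earlier results of these data known. All members are named, and of the other lists the genes past both thresholds and some further genes, marked as named after their values were seen. Protein sequences were not used here. Sequencing depth limits Nqo1 and Gpx3, at under 8 counts a library.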

Additional observations from a re-analysis of the deposited data

How the results depend on the processing

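The counts of members higher and lower were 8 to 11 and 16 to 21 over the 9 alternatives on all 6 libraries and the 6 fits without 1 library. Hmox1 and Osgin1 were the 2 members past both thresholds in the main analysis, and the count was 2 in every alternative except a fold threshold of 1.5, which gave 6. Over all genes, 1195 passed both thresholds, against 3420 at 1.5-fold and 406 with limma on log2(RPKM + 1), where the pseudocount shrinks low genes. Of 342 member results under the 9 alternatives, 303 kept direction and side of the threshold, 11 fell short of it, 9 passed it and 19 changed sign; of 228 without 1 library these were 215, 6, 4 and 3. The sign changes were all of members that did not pass. Under upper quartile scaling, library totals, log2(RPKM + 1) and log2(RPKM + 0.1), in that order, the log2 fold change of Mgst1 was -0.0306, -0.0644, -0.0589 and -0.0626, that of Mgst3 was -0.0539, -0.0877, -0.0815 and -0.0845, that of Glrx3 was -0.0321, -0.0665, -0.0638 and -0.0663, and that of Prdx2 was -0.0140, -0.0486, -0.0464 and -0.0482. Cat was at -0.0314, -0.0301 and -0.0307 under the last 3. Without 1 library, Mgst1 ranged from -0.0122 to 0.0976 and Mgst3 from -0.0622 to 0.0576. The median of all genes was -0.014 under TMM, -0.084 under upper quartile scaling and -0.119 under library totals, so a member near 0 takes its sign from the scaling. The share of called genes that were higher was 49.4% under TMM, 41.6% under upper quartile scaling, 37.9% under library totals and 37.4% with limma. The median of the glutathione enzymes was -0.34 under TMM and -0.44 under library totals, which is -0.33 and -0.32 relative to the median of all genes. Replicate numbers did not pair the libraries (correlations of deviations -0.0231, 0.00385 and -0.0152), and with a replicate block 11 members were higher, 19 lower and 8787 genes were called, with no change of a member's call.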

Other observations

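Selenoproteins, which insert selenocysteine and include Gpx1, Txnrd1 and Txnrd2, were mixed. Of 24 listed genes 18 were tested, of which 7 were higher, 5 were lower and 6 did not pass, with a median log2 fold change of 0.06. Among those that are not antioxidant members, 15 were tested and 5 were higher, 5 lower and 5 did not pass. Sephs2, the selenophosphate synthetase that makes the selenium donor for these proteins and is itself a selenoprotein, was the only listed selenoprotein at least 2-fold changed. It had 2343, 2137 and 2361 normalized counts in Control and 769, 673 and 650 after H/R (log2 -1.71 ± 0.058, edgeR adjusted p = 1.75e-21), so that Gpx1 mRNA rose while Sephs2 mRNA fell. Exons of Gm44729 on the opposite strand overlap 36.4% of the exon length of Sephs2.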
